A study of Mus musculus with 7 samples.

Results

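Interferon-stimulated genes were examined in double-positive (DP) thymocytes, the immature T cells of the thymus that carry both CD4 and CD8 and assemble the alpha chain of the T cell receptor (TCR). The 43 genes were named as 1 group by gene symbol and not by a rule on their measured values, but with earlier results of these data known. They comprised 37 targets that are classically linked to type I interferon and 6 interferon gamma-responsive GTPases (Gbp2, Gbp3, Gbp7, Irgm1, Igtp and Iigp1). The expression table held 42 of them among 12092 distinct symbols, and Oasl2 had no row. Ifi44 did not reach the minimum mean of 0.5 FPKM used for testing, so 41 genes (35 type I targets and 6 GTPases) were compared over 12063 genes tested.

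RNA-Seq was carried out on DP cells sorted from the thymus as TCRγδ- CD4+ CD8+ cells. All mice were B6/129 hybrid littermates aged 4 to 5 weeks, and every library came from 1 animal. LP mice (L-DKO pTαKO) carry loxP-flanked Id2 and Id3, deleted in T lineage cells by LckCre, together with a deficiency of pTα, which pairs with the TCR beta chain to form the pre-TCR of earlier thymocytes, and gave 2 libraries. L-DKO mice carry the same deletion of Id2 and Id3, the inhibitors of E protein transcription factors, with pTα intact, and also gave 2 libraries. The pTαKO group, which lacks pTα alone, was represented by replicate 2 only, since replicate 1 was removed by the submitters for poor sequencing and was not analysed here. WT, with all of these genes intact, had 1 library. The study's methods give fewer sorted cells for pTαKO than for the other genotypes. All levels are log2(FPKM + 1) values unless FPKM is named, FPKM being sequenced fragments per length of transcript and per depth of library, so that levels of different genes may be compared. Differences are differences of these log2 values, which understate the change of low genes, and carry the standard error (SE) of a model of all libraries, in which pTαKO and WT were assumed to vary like the replicated groups. The number of reads behind each library was not stated, so no counting error can be attached to single values.

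Interferons are cytokines that warn cells of viruses and other intracellular pathogens. Type I interferons act through the receptor chains IFNAR1 and IFNAR2 and the kinases JAK1 and TYK2, which lead to binding of STAT2 and IRF9 at the interferon-stimulated response element (ISRE), whereas interferon gamma acts mainly through the gamma-activated sequence (GAS) and through IRF1. The induced proteins sense foreign nucleic acid, block viral entry and replication, present antigen, or, in the case of the guanylate-binding proteins (GBP) and immunity-related GTPases (IRG), attack the vacuoles in which pathogens hide. In the thymus, type I interferon is known to be made at a steady level by epithelial cells, and responding thymocytes carry such transcripts without infection.

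Promoter sequences of the members show how far the classes share these elements. Windows from 250 bases before to 50 bases after a gene start (RefSeq, GRCm38.p6) were on hand for 32 of the 42 measured genes. The core of the ISRE, taken as GAAA, any 2 bases and GAAA again, occurred on either strand in 17 of the 32, comprising 12 of 27 type I targets and all 5 GTPases with a window, against 3.99% of 27025 genes and 3.44% of all 32851 windows. TTCNNNGAA, the core of the GAS, occurred in 9 of the 32 (7 of 27 type I targets and, among GTPases, Gbp7 and Igtp), against 9.55% of genes and 8.3% of all windows. A run of several such cores, each overlapping the next, counts as separate matches. The 6 stretches below, each of 70 bases in the direction of the gene, are shown because they belong to genes described in detail further on, 3 of each class. Capitals mark the ISRE core, read as TTTC, any 2 bases and TTTC where it lies on the opposite strand. Isg15 is taken from chr4:156200851-156200920 (minus strand), Ifit1 from chr19:34640764-34640833 (plus), Bst2 from chr8:71537560-71537629 (minus), Gbp2 from chr3:142620574-142620643 (plus), Irgm1 from chr11:48871421-48871490 (minus) and Igtp from chr11:58199486-58199555 (plus), and all lie upstream of the annotated start.
Isg15: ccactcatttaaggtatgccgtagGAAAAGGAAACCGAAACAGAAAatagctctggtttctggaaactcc
Ifit1: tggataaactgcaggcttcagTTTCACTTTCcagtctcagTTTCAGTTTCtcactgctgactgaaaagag
Bst2: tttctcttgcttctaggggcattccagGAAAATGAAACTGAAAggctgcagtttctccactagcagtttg
Gbp2: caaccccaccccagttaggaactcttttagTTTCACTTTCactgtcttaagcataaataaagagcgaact
Irgm1: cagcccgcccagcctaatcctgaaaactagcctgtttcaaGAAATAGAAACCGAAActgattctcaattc
Igtp: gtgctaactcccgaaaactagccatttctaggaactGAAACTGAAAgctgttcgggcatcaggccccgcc

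Isg15 held 3 overlapping cores, Bst2 and Irgm1 held 2 overlapping cores, Ifit1 held 2 separate ones, and Gbp2 and Igtp held 1. The GAS core began at position -136 from the start in Bst2 and at -45 in Igtp, overlapping the first ISRE core in Bst2 and ending before it in Igtp. A match of letters describes the sequence and is not evidence of binding, and a window without a match lacks only these letters. Presence of the ISRE letters did not sort the genes by their difference between LP and L-DKO, with a median of 0.15 over the 17 tested genes that held them and 0.28 over the 14 tested genes with a window that did not.

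Before the comparisons, libraries were checked against their labels and for other cell types. Id3 measured 1.96 and 3.18 in LP cells and 1.91 and 3.32 in L-DKO cells, against 5.25 in pTαKO and 6.22 in WT. Id2 measured 1.92 and 0.99 in LP cells, 0.998 and 0.24 in L-DKO cells, 1.87 in pTαKO and 3.56 in WT. For Id2, pTαKO thus lay within the range of the LP libraries, and the gene did not separate Id-intact from Id-deleted libraries. Ptcra, which encodes pTα, measured 5.35 and 5.87 in LP cells, 5.75 in pTαKO, 6.35 and 6.62 in L-DKO cells and 5.06 in WT, so it was not lower than WT in the libraries labelled pTα-deficient, and since the deleted part of the gene is not given, a whole-gene value does not check the deletion. Ddx3y, a Y-linked gene, measured 4.21 and 0.63 in LP cells, 0.67 in pTαKO, 5.14 and 4.81 in L-DKO cells and 4.36 in WT, which sets LP replicate 2 and pTαKO apart in sex. The 15 measured of 18 DP markers summed to between 7587 and 8646 FPKM in the 6 libraries. The 17 measured of 21 myeloid and dendritic cell markers summed to 104 and 108 FPKM in LP, 436 in pTαKO, 49.7 and 41.5 in L-DKO cells and 36.7 in WT, and the 9 measured of 15 B cell markers summed to 140 and 120 FPKM in the LP libraries, 387 in pTαKO, 56.9 and 59.9 in the L-DKO libraries and 73.3 in WT. C1qc, a macrophage gene, measured 6.35 in pTαKO against 1.75 in WT, and 2.76 and 2.79 in LP cells against 2.81 and 2.73 in L-DKO cells. Over the 17 myeloid and dendritic cell markers, however, LP minus L-DKO had a median of 0.80, with single genes between -0.47 and 2.15. Within the B cell list, Cd74 and H2-Ab1 measured 6.87 and 6.51 in pTαKO against 4.47 and 3.92 in WT. Cd79b, Blnk, H2-Aa and H2-Eb1 were also higher in pTαKO than in WT. Igkc, Ighd and Jchain were lower, so the genes of that list did not share 1 direction. Values of the marker lists are therefore given beside the results below. In bulk samples, fewer cells of a type and less RNA per cell cannot be told apart.

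**Figure D1:**
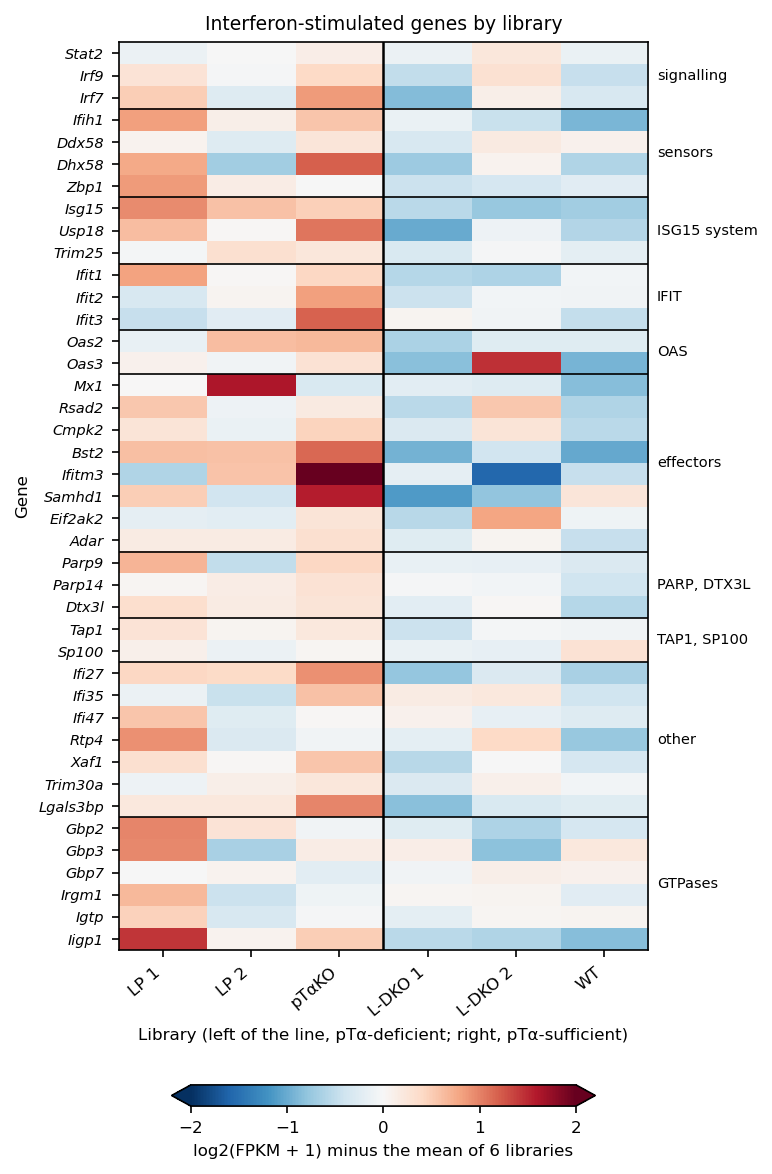
Heat map of the 41 tested interferon-stimulated genes (rows, grouped by role) in the 6 libraries (columns, pTα-deficient libraries left of the line). Colour gives log2(FPKM + 1) minus the mean of the 6 libraries, with values beyond 2 in either direction at the end of the scale, and pTαKO holds the highest value for 19 of the 35 type I targets, whereas LP replicate 1 holds it for 5 of the 6 GTPases.

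Type I targets were expressed over a wide range in DP cells and mostly had higher means where pTα was absent. The highest value over the 6 libraries was in pTαKO for 19 of 35 type I targets, in LP replicate 1 for 10, in LP replicate 2 for 2, in L-DKO replicate 2 for 3 and in WT for 1, while over all genes tested these libraries held the highest value for 19.2%, 16.7%, 15.7%, 22.5% and 10.6%. The lowest value lay in L-DKO replicate 1 for 16 of the 35 targets and in WT for 13, and in pTαKO or LP replicate 1 for 0. No share over all genes stands beside these counts of lowest values, so they describe these targets only. GTPases were ordered differently. LP replicate 1 was highest for 5 of 6 (16.7% of all genes) and pTαKO for 0 (19.2%). The heat map of members by library shows both patterns.

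The effect of pTα loss on an Id-deleted background was examined between LP and L-DKO. The mean was higher in LP for 35 of 41 genes, against 50.1% of all genes tested, and 19 were higher without overlap of the libraries (22.3% of all genes), whereas 2, Ifi35 and Ifit3, were lower without overlap (22.2%). A difference of at least 2-fold without overlap was found for 7 genes in the higher direction (5.06% of all genes) and for 0 in the lower (2.91%). No member passed the test after adjustment over all genes (0.0166% of all genes did, 2 of 12063), and 6 had an unadjusted p under 0.05, all higher in LP, where 6.15% of all genes were higher at that level. These 6 were Isg15, Bst2, Ifi27, Lgals3bp, Zbp1 and Gbp2. The median difference was 0.30 for type I targets and 0.32 for GTPases, against 0.00 for all genes. Without L-DKO replicate 2, L-DKO replicate 1, LP replicate 1 or LP replicate 2 the type I median was 0.59, 0.16, 0.26 or 0.44, and the number of members with a higher mean in LP was 39, 26, 26 or 33 of 41. In that order, 31, 21, 23 or 28 members were higher without overlap (35.5% to 36.8% of all genes). Lower without overlap were 2, 9, 7 or 3 members (34.5% to 38.8%). Myeloid markers differed in the same direction, with 15 of 17 above 0 and a median of 0.80.

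The smallest adjusted p of the members belonged to the ISG15 system. Isg15, a ubiquitin-like protein that is conjugated to newly made proteins, measured 6.05 and 5.69 in LP cells against 4.57 and 4.36 in L-DKO cells, and 5.59 in pTαKO against 4.41 in WT. All 3 pTα-deficient libraries lay above all 3 others by more than any replicates differed. LP minus L-DKO was 1.41 ± 0.20 (adjusted p = 0.200 in limma), a 2-library difference that did not pass. The gene lies on chromosome 4 (156199424 to 156200818). Usp18, which removes ISG15 and restrains the type I receptor, measured 4.56 and 3.97 in LP cells against 2.93 and 3.84 in L-DKO cells, and 5.01 in pTαKO against 3.36 in WT. LP lay above L-DKO without overlap, but the L-DKO replicates differed by as much as the group means, and the difference of 0.88 ± 0.41 did not pass (adjusted p = 0.522). Trim25, a ubiquitin and ISG15 ligase, measured 5.26 and 5.61 in LP cells and 4.99 and 5.28 in L-DKO cells, which overlapped.

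Among antiviral effectors, Bst2, or tetherin, which holds budding virus at the cell surface, measured 7.52 and 7.50 in LP cells against 5.97 and 6.53 in L-DKO cells, and 8.06 in pTαKO against 5.89 in WT. Groups did not overlap, and LP minus L-DKO was 1.26 ± 0.22 (adjusted p = 0.264). Bst2 is also a marker of plasmacytoid dendritic cells, and Siglech, a defining marker of those cells, measured 1.42 and 0.67 in LP cells, 0.57 and 0.25 in L-DKO cells, 2.33 in pTαKO and 0.33 in WT. Spib, another marker of the list, also lay higher in all pTα-deficient libraries, at 3.14 and 3.82 in LP cells and 3.70 in pTαKO. It measured 2.54 and 1.95 in L-DKO cells and 0.80 in WT. Ccr9 of the same list lay lower in all pTα-deficient libraries, so these markers did not share a common direction. Over the 10 tested plasmacytoid markers, Bst2 among them, the median was -0.10 for LP minus L-DKO and 0.01 by pTα status. The part of plasmacytoid dendritic cells in the Bst2 values was not tested. Samhd1, which depletes the nucleotides that viruses need for DNA synthesis, measured 1.87 and 0.99 in LP cells against 0.24 and 0.58 in L-DKO cells, and 2.95 in pTαKO against 1.63 in WT, a difference of 1.02 ± 0.49 in LP cells (adjusted p = 0.534). Mx1, a dynamin-like GTPase that acts against influenza virus, measured 1.15 and 2.77 in LP cells against 0.94 and 0.90 in L-DKO cells, and 0.85 in pTαKO against 0.30 in WT. The separation of Mx1 (1.04 ± 0.66, adjusted p = 0.605) rested on LP replicate 2, without which it was 0.23.

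Other effectors differed less. Adar, an enzyme that edits double-stranded RNA, measured 5.13 and 5.13 in LP cells and 4.73 and 5.02 in L-DKO cells, with 5.29 in pTαKO and 4.50 in WT, so that LP lay above L-DKO by 0.26 ± 0.18 without overlap. These values belong to the most abundant of 3 Adar entries. A second entry measured 1.12 and 5.71 in LP cells, 0 and 0 in L-DKO cells, 1.29 in pTαKO and 4.46 in WT. The third measured 2.68 and 4.37 in LP cells, 0.39 and 0.23 in L-DKO cells, 0.28 in pTαKO and 0 in WT. Neither separated the libraries by pTα status. Ifitm3, which blocks the fusion of viruses in endosomes and is also abundant in myeloid cells, measured 1.52 and 2.69 in LP cells, 1.96 and 0.56 in L-DKO cells, 4.37 in pTαKO and 1.67 in WT. Its high value was confined to the pTαKO library, where myeloid markers were also highest. Rsad2 (viperin), Cmpk2 and Eif2ak2 (protein kinase R) overlapped between LP and L-DKO, with differences of 0.22, 0.07 and -0.31.

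The IFIT proteins bind foreign RNA ends and the oligoadenylate synthetases (OAS) make the second messenger that activates RNase L. Ifit1 measured 2.77 and 1.99 in LP cells against 1.40 and 1.35 in L-DKO cells, and 2.39 in pTαKO against 1.91 in WT. LP lay above L-DKO in both libraries (1.00 ± 0.43, adjusted p = 0.496). Ifit2, also on chromosome 19, measured 3.01 and 3.38 in LP cells, 2.91 and 3.27 in L-DKO cells, 4.14 in pTαKO and 3.26 in WT, so only the pTαKO library stood out. Ifit3 was lower in LP, at 0.62 and 0.84 in the LP libraries against 1.13 and 1.00 in L-DKO cells (-0.34 ± 0.41), yet was highest in pTαKO at 2.25 against 0.60 in WT. Members of such families share sequence, and reads of near-identical copies may have been split between them. Oas2 measured 1.08 and 1.84 in LP cells against 0.58 and 0.98 in L-DKO cells, and Oas3 measured 1.72 and 1.56 in LP cells against 0.79 and 3.09 in L-DKO cells. The L-DKO libraries differed more from each other in Oas3 than any group differed from another.

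Sensors of nucleic acid were split. Zbp1, which binds Z-form nucleic acid and can trigger cell death, measured 5.94 and 5.24 in LP cells against 4.67 and 4.76 in L-DKO cells, and 5.08 in pTαKO against 4.86 in WT, and its difference of 0.88 ± 0.27 in LP cells stood beside one of 0.22 in the other pair. Ifih1 (MDA5), a sensor of long double-stranded RNA, measured 3.16 and 2.47 in LP cells against 2.22 and 1.90 in L-DKO cells, and 2.90 in pTαKO against 1.43 in WT. Both LP libraries and pTαKO lay above all others. Ddx58 (RIG-I), which detects RNA with a triphosphate end, measured 3.71 and 3.38 in LP cells and 3.32 and 3.81 in L-DKO cells, with 3.88 in pTαKO and 3.72 in WT, and showed no separation. Dhx58 (LGP2), a regulator of both, overlapped in LP and L-DKO and was 3.90 in pTαKO against 2.09 in WT.

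Factors of the pathway itself overlapped between LP and L-DKO. Stat2, a subunit of the complex that binds the ISRE, measured 4.24 and 4.36 in LP cells and 4.25 and 4.59 in L-DKO cells, with 4.49 in pTαKO and 4.23 in WT. Irf9, the DNA-binding subunit, measured 5.98 and 5.68 in LP cells and 5.22 and 6.005 in L-DKO cells, with 6.11 in pTαKO and 5.24 in WT. Irf7, the inducer of interferon alpha genes, measured 4.38 and 3.63 in LP cells and 3.02 and 4.01 in L-DKO cells, with 4.73 in pTαKO and 3.57 in WT. By pTα status the differences were 0.01 ± 0.18 for Stat2, 0.43 ± 0.26 for Irf9 and 0.72 ± 0.36 for Irf7, of which none passed, and pTαKO minus WT was 0.27, 0.86 and 1.16. In all 3 genes L-DKO replicate 2 lay above L-DKO replicate 1. None of 20 interferon genes searched for had a row, so the ligands were not analysed here.

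Among the other targets, Ifi27, a small membrane protein of mitochondria, measured 7.92 and 7.88 in LP cells against 6.73 and 7.22 in L-DKO cells, and 8.41 in pTαKO against 6.86 in WT (LP minus L-DKO 0.93 ± 0.20, adjusted p = 0.319). Lgals3bp, a secreted galectin-binding glycoprotein, measured 5.35 and 5.37 in LP cells against 4.31 and 4.84 in L-DKO cells, and 6.12 in pTαKO against 4.90 in WT. Both separated pTα-deficient from pTα-sufficient libraries without overlap. Ifi35 did not, with 4.00 and 3.67 in LP cells, 4.27 and 4.31 in L-DKO cells, 4.69 in pTαKO and 3.71 in WT. Ifi47, itself an IRG family GTPase that was counted here with the type I targets, measured 5.71 and 4.91 in LP cells and 5.24 and 4.98 in L-DKO cells, with 5.17 in pTαKO and 4.89 in WT. Ifi44 measured 0.17 and 0.06 in LP cells, 0.10 and 0.91 in L-DKO cells, 1.16 in pTαKO and 0.01 in WT, too low to test.

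Dtx3l and Parp9, which form a ubiquitin ligase and ADP-ribosyltransferase complex and whose genes overlap at their starts on chromosome 16 (35926515 to 35939027 and 35938470 to 35972621), did not order the libraries alike, and since counting by strand is not stated, reads of the shared stretch may belong to either. Dtx3l measured 5.05 and 4.87 in LP cells against 4.49 and 4.73 in L-DKO cells, and 4.96 in pTαKO against 4.14 in WT, without overlap. Parp9 measured 5.00 and 3.82 in LP cells and 4.16 and 4.15 in L-DKO cells, with 4.74 in pTαKO and 4.03 in WT, which overlapped. Tap1, a peptide transporter for MHC class I, measured 6.25 and 6.03 in LP cells against 5.55 and 5.93 in L-DKO cells, and 6.18 in pTαKO against 5.91 in WT. Sp100, a nuclear body protein whose levels spanned less than 0.5 over the libraries, measured 7.26 and 7.04 in LP cells, 7.02 and 6.99 in L-DKO cells, 7.20 in pTαKO and 7.44 in WT. Over the libraries Parp14 was between 2.85 and 3.55, Rtp4 between 2.99 and 4.66, Xaf1 between 2.96 and 4.07 and Trim30a between 4.02 and 4.53, and LP minus L-DKO was 0.13, 0.20, 0.46 and 0.10 in these genes.

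**Figure D2:**
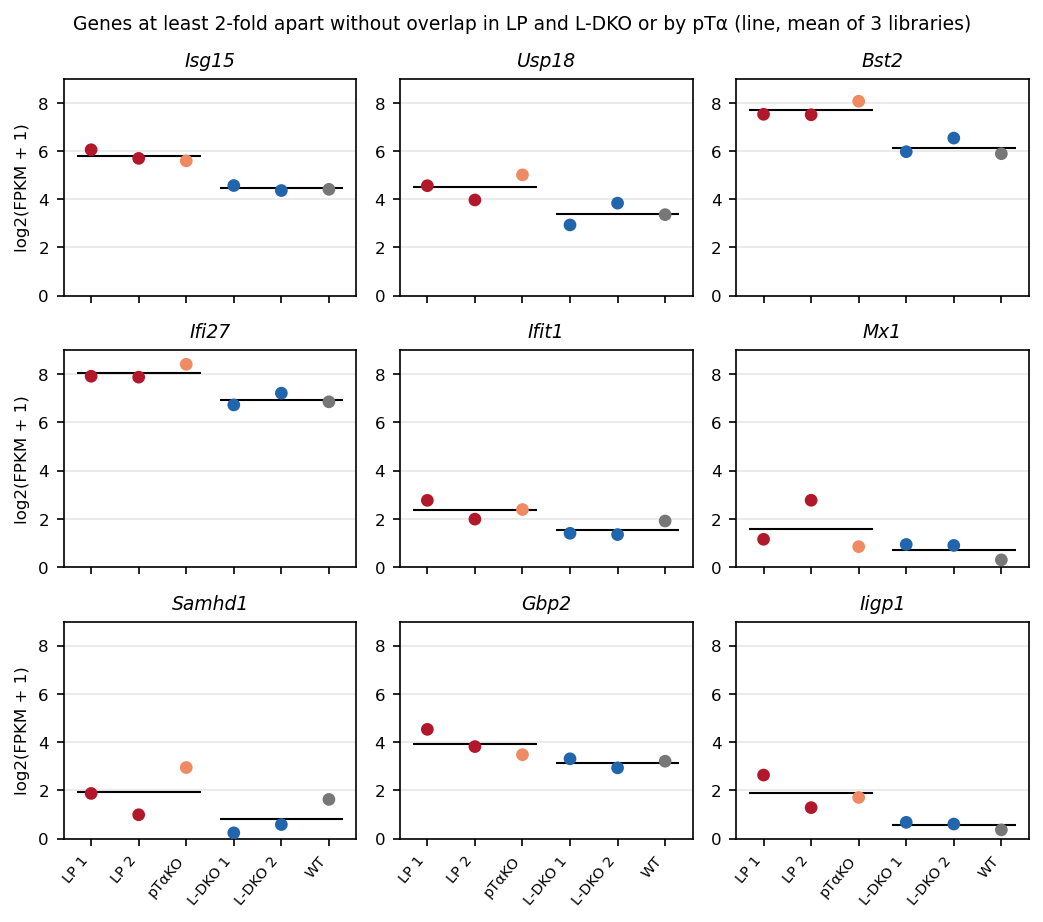
Levels of the 9 genes at least 2-fold apart without overlap, either between LP and L-DKO or between the 3 pTα-deficient and 3 pTα-sufficient libraries. The y axis is log2(FPKM + 1), each point is 1 library and lines are means of 3 libraries, and for Isg15 the pTα-deficient libraries sit between 5.59 and 6.05, above 4.36 to 4.57 in the others.

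All libraries were next compared by pTα status with a term for the Id deletion, which sets LP and pTαKO (3 libraries) against L-DKO and WT (3 libraries). Both libraries low in Y-linked transcripts, LP replicate 2 and pTαKO, are on the pTα-deficient side. The mean was higher in pTα-deficient cells for 39 of 41 members (50.9% of all genes), and 16 were higher without overlap (9.94%), against 0 lower without overlap (8.8%). These 16 were Isg15, Usp18, Bst2, Ifi27, Lgals3bp, Ifih1, Zbp1, Ifit1, Oas2, Xaf1, Dtx3l, Adar, Parp14, Tap1, Gbp2 and Iigp1. Adar is counted by its most abundant entry only. At least 2-fold without overlap were 5 genes (2.83% of all genes): Bst2 by 1.57 ± 0.24 (adjusted p = 0.0984), Isg15 by 1.33 ± 0.16 (adjusted p = 0.0554), Iigp1 by 1.33 ± 0.45 (adjusted p = 0.32), Ifi27 by 1.14 ± 0.19 (adjusted p = 0.117) and Usp18 by 1.14 ± 0.34 (adjusted p = 0.276). No member passed (0.265% of all genes did, 32 of 12063), and 12 had an unadjusted p under 0.05, all higher, where 7.19% of all genes were higher at that level. That number was 6 when L-DKO replicate 1, pTαKO or WT was left out, 7 for LP replicate 1, 13 for L-DKO replicate 2 and 15 for LP replicate 2, where 5.57% to 6.18% of all genes were higher at that level. Over 15 alternatives the adjusted p of Isg15 ran from 0.0534 to 0.226.

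The type I median was 0.43 and the GTPase median 0.20 in that comparison, against 0.01 for all genes, and without LP replicate 1 the GTPase median was -0.13. Leaving out any 1 library gave between 34 and 39 members with a higher mean in pTα-deficient cells, and between 16 and 22 without overlap, where 14.2% to 16.2% of all genes were higher without overlap. Without pTαKO, the library with the highest sums of myeloid and B cell markers, 35 members had a higher mean and 17 did not overlap (15.5% of all genes). WT was then the only Id-intact library, so the fitted difference was that of LP minus L-DKO again and gave no separate check. The same holds for the fit without WT, where pTαKO was the only Id-intact library. Myeloid markers had higher means as well, with 17 of 17 above 0 and a median of 1.54. The myeloid sum was 436 FPKM in pTαKO and 104 and 108 in LP cells. Both LP libraries lay below pTαKO for 22 of 35 type I targets (35.3% of all genes), among them Bst2, Ifi27, Lgals3bp, Usp18, Samhd1 and Ifitm3. Both lay above pTαKO for Isg15 (6.05 and 5.69 against 5.59), Zbp1 and Mx1. The part of myeloid cells in the values was not tested.

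**Figure D3:**
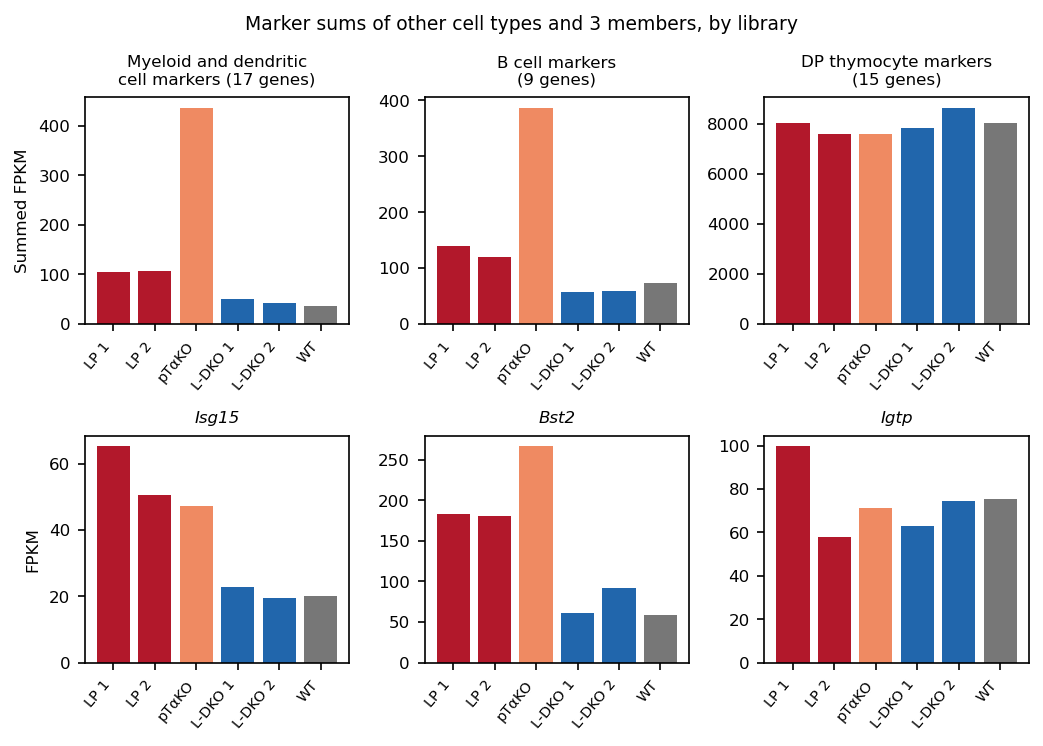
Summed FPKM of myeloid and dendritic, B cell and DP markers (upper row) and FPKM of Isg15, Bst2 and Igtp (lower row) by library. Bars start at 0, and the myeloid sum is 104 and 108 FPKM in LP and 436 in pTαKO against 49.7 and 41.5 in L-DKO cells and 36.7 in WT, while DP markers lie between 7587 and 8646 FPKM.

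The pairs LP with L-DKO and pTαKO with WT share no library and so give separate views of pTα loss, the second with 1 library on each side and no test. Y-linked transcripts averaged 0.76 in pTαKO against 4.46 in WT, so genotype and sex cannot be told apart in that pair. In the other pair they averaged 4.17 and 0.52 in LP cells against 4.83 and 4.64 in L-DKO cells. In pTαKO the value was higher than in WT for 37 of 41 members (52% of all genes) and at least 2-fold higher for 13 (7.77%). By class it was higher for 34 of 35 type I targets, with a median difference of 0.86, and for 3 of 6 GTPases, with a median of 0.04, where the median of all genes was 0.02. Markers of other cells were higher in pTαKO too, with a median of 2.89 for myeloid, 1.23 for B cell and 1.89 for erythroid and platelet markers, and their part in the result was not tested. Members above 0 in both pairs numbered 31 of 41, against 30.2% of all genes, and comprised 28 of 35 type I targets and 3 of 6 GTPases (Gbp2, Irgm1 and Iigp1). Below 0 in both pairs were 0 members, against 28% of all genes. At least 2-fold higher in both were Isg15, Bst2, Samhd1 and Iigp1, 4 of 41 against 2.02% of all genes. In the scatter of these pairs, the 6 type I targets below 0 on the LP axis (Ddx58, Stat2, Oas3, Eif2ak2, Ifit3 and Ifi35) all lay above 0 on the pTαKO axis.

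**Figure D4:**
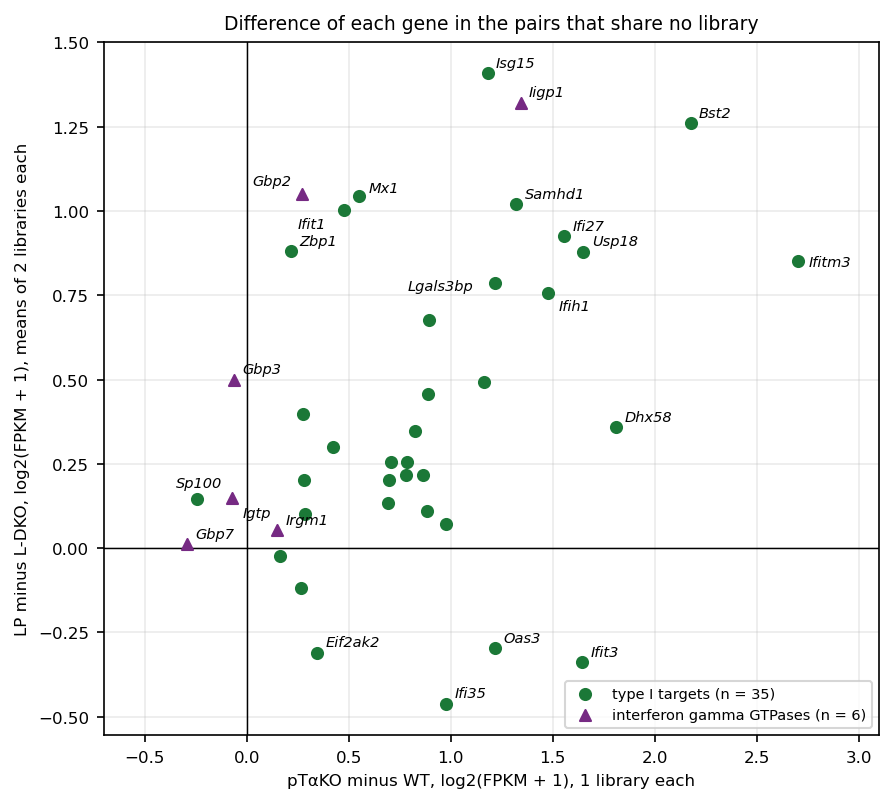
Difference of each of 41 genes in pTαKO minus WT (x axis, 1 library each) and in LP minus L-DKO (y axis, means of 2 libraries each), both in log2(FPKM + 1). Circles are type I targets and triangles are GTPases, and 28 of 35 circles but 3 of 6 triangles lie in the upper right quadrant.

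GTPases associated with interferon gamma were then set beside the type I targets. Igtp, an IRG protein that regulates the others and the most abundant of the 6, measured 6.65 and 5.88 in LP cells, 5.99 and 6.23 in L-DKO cells, 6.18 in pTαKO and 6.25 in WT. Irgm1, a second regulatory IRG protein, measured 4.59 and 3.52 in LP cells, 3.99 and 4.01 in L-DKO cells, 3.87 in pTαKO and 3.72 in WT. In both genes LP replicate 1 was the highest library and LP replicate 2 the lowest, so that LP spanned all other libraries and the mean difference from L-DKO was 0.15 ± 0.29 for Igtp and 0.05 ± 0.41 for Irgm1. Gbp7 was nearly constant, at 3.51 and 3.58 in LP cells, 3.44 and 3.62 in L-DKO cells, 3.30 in pTαKO and 3.59 in WT. Gbp3 measured 2.45 and 0.84 in LP cells and 1.63 and 0.67 in L-DKO cells, with 1.64 in pTαKO and 1.70 in WT. The spread within each genotype exceeded the difference between them for Gbp3.

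Gbp2 and Iigp1 were the GTPases that separated by pTα status. Gbp2, which coats pathogen vacuoles, measured 4.53 and 3.82 in LP cells against 3.31 and 2.93 in L-DKO cells, and 3.48 in pTαKO against 3.21 in WT (LP minus L-DKO 1.05 ± 0.35, adjusted p = 0.414). Iigp1, an effector IRG protein, measured 2.64 and 1.28 in LP cells against 0.67 and 0.60 in L-DKO cells, and 1.71 in pTαKO against 0.36 in WT (1.32 ± 0.59, adjusted p = 0.507). Without LP replicate 1 both differences were under 2-fold, at 0.69 for Gbp2 and 0.65 for Iigp1. Gbp7, Gbp3 and Gbp2 are neighbours on chromosome 3 (from 142530336 to 142638008) and resemble each other in sequence, so their values are less certain.

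The classes differed in which library was high. LP replicate 1 exceeded LP replicate 2 in 5 of 6 GTPases by a median of 0.93, and in 24 of 35 type I targets by a median of 0.21. Counts between single libraries are given here without the share over all genes and describe these genes only. LP replicate 1 exceeded pTαKO in 6 of 6 GTPases and in 12 of 35 type I targets, and both LP libraries lay below pTαKO for 22 of 35 type I targets and for 0 of 6 GTPases (35.3% of all genes). From WT, the median difference of type I targets was 0.73 and 0.40 in LP cells, 0.86 in pTαKO and -0.03 and 0.36 in L-DKO cells, and that of GTPases was 0.81 and -0.11 in LP cells, 0.04 in pTαKO and 0.01 and 0.01 in L-DKO cells. The GTPase median between LP and L-DKO was -0.09 without LP replicate 1 and 0.95 without LP replicate 2, so its direction was set by 1 library. With the sex of the library as a term, chosen after the data were seen, it was 0.95, since LP replicate 2 and pTαKO are the libraries low in Y-linked transcripts. The difference between the classes was not tested.

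**Figure D5:**
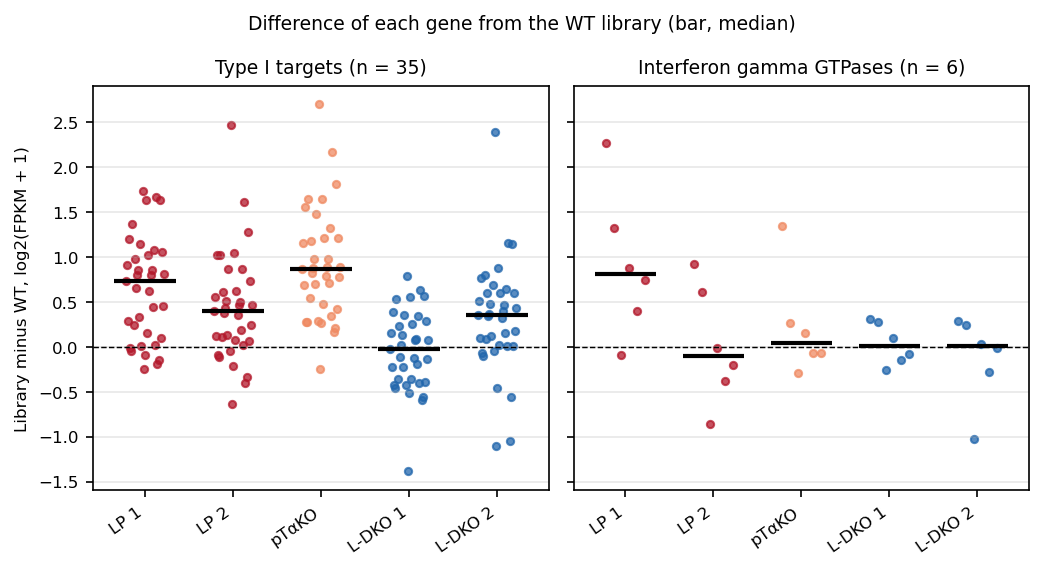
Difference of every gene from the WT library in log2(FPKM + 1), for 35 type I targets (left) and 6 GTPases (right). Points are genes and bars are medians, which for type I targets are 0.73 and 0.40 in LP cells, 0.86 in pTαKO and -0.03 and 0.36 in L-DKO cells, and for GTPases 0.81 and -0.11 in LP cells, 0.04 in pTαKO and 0.01 and 0.01 in L-DKO cells.

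Deletion of Id2 and Id3 gave no common direction in these genes. Across LP and L-DKO (4 libraries) against pTαKO and WT (2 libraries), with a term for pTα, 17 of 41 members had a higher mean in Id-deleted cells (50.8% of all genes), with medians of -0.11 for type I targets and 0.16 for GTPases. Mx1 was higher without overlap (6.94% of all genes) and 0 members were lower without overlap (5.87%). No member passed (0.0166% of all genes did), and Samhd1 (-1.37 ± 0.40, adjusted p = 0.730) and Lgals3bp (-0.54 ± 0.20, adjusted p = 0.751) had an unadjusted p under 0.05, both lower (3.1% of all genes). In both genes LP lay below pTαKO and L-DKO below WT. Myeloid markers had a median of -0.98 in this comparison. The type I median was 0.13 without pTαKO. L-DKO minus WT alone had a type I median of 0.13 and a GTPase median of -0.07, with 0 members passing (0.0414% of all genes) and 0 at an unadjusted p under 0.05.

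LP against pTαKO asked the same in pTα-deficient cells. The type I median was -0.28 and the GTPase median 0.22, 0 members passed (0.0995% of all genes), 12 of 41 members had a higher mean in LP (49.5% of all genes), and 4 had an unadjusted p under 0.05, all lower in LP (3.29% of all genes were): Ifitm3 (-2.26 ± 0.83), Ifit3 (-1.52 ± 0.51), Ifi35 (-0.86 ± 0.28) and Lgals3bp (-0.76 ± 0.28). Myeloid markers had a median of -2.08 in the same comparison. LP against WT gave medians of 0.49 for type I targets and 0.17 for GTPases, with 34 of 41 members above 0 (52.6% of all genes), 6 higher at an unadjusted p under 0.05 (3.74%), 0 members passing (0.058%) and Bst2 lowest in adjusted p (0.292). Myeloid markers had a median of 0.81 in LP against WT. The difference between the 2 effects of pTα loss, with and without Id proteins, had a median of -0.50 for type I targets and 0.26 for GTPases. No member passed this interaction (0.0497% of all genes did), and Ifi35 and Ifit3 had an unadjusted p under 0.05, both negative (2.5% of all genes).

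Further genes of the pathway, listed by function but with earlier results of these data known, followed in part. Of 54 further type I targets named, 37 were measured, of which 30 had a higher mean in pTα-deficient cells (50.9% of all genes), 9 were higher without overlap (9.94%) and 0 lower without overlap (8.8%), with a median of 0.38. Myeloid and B cell markers had medians of 1.54 and 1.47 in this comparison, and their part was not tested. Ifi27l2a, a relative of Ifi27, measured 6.64 and 6.72 in LP cells against 4.58 and 5.55 in L-DKO cells, and 7.22 in pTαKO against 4.96 in WT (1.83 ± 0.28 by pTα status, adjusted p = 0.0984). The most abundant further target, Ly6e, was between 10.19 and 10.58 in all libraries. Of 15 further GTPases named, 4 were measured, Ifi47 among them, and Gbp4, Gbp10 and Gbp11 each lay higher without overlap in pTα-deficient cells (9.94% of all genes), with differences of 0.34 ± 0.13, 0.65 ± 0.20 and 1.45 ± 0.34. None passed the test. LP replicate 1 was the highest library for Gbp4 (7.77) and Gbp10 (6.39), as for Igtp and Irgm1. In Gbp11 LP replicate 2 was the highest library at 2.40, with 2.14 in LP replicate 1, 2.37 in pTαKO, 1.25 and 0.74 in L-DKO cells and 0.57 in WT.

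Antigen presentation genes, which both interferon classes induce, had mostly higher means. Of 13 measured genes of MHC class I and the immunoproteasome, Tap1 among them, 11 had a higher mean in pTα-deficient cells (50.9% of all genes), 5 without overlap (9.94%). Myeloid and B cells, whose markers had medians of 1.54 and 1.47 here, also express MHC class I, and their part was not tested. B2m, the light chain of MHC class I, measured 9.27 and 8.86 in LP cells against 7.82 and 7.999 in L-DKO cells, and 9.29 in pTαKO against 7.94 in WT (1.22 ± 0.15 by pTα status, adjusted p = 0.0554). Nlrc5, the transactivator of MHC class I, measured 3.93 and 2.71 in LP cells against 1.54 and 1.82 in L-DKO cells, and 3.30 in pTαKO against 1.81 in WT. The groups did not overlap in either gene, for which both were picked, and neither passed. Psmb8, an immunoproteasome subunit, stayed between 8.29 and 8.47 in all libraries.

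Receptors and regulators gave no common direction. Ifnar1, a chain of the type I receptor, measured 5.07 and 5.19 in LP cells, 5.06 and 5.11 in L-DKO cells, 5.36 in pTαKO and 5.45 in WT. Ifngr1, the ligand-binding chain for interferon gamma, measured 7.41 and 7.45 in LP cells against 8.11 and 8.08 in L-DKO cells, and 7.56 in pTαKO against 7.99 in WT, lower by pTα status without overlap (-0.59 ± 0.10, adjusted p = 0.125). Ifngr2 was between 3.60 and 4.72 and overlapped. Irf1, the factor that drives GBP genes after interferon gamma, measured 5.25 and 4.50 in LP cells, 5.47 and 5.26 in L-DKO cells, 4.71 in pTαKO and 4.25 in WT, lower in LP than in L-DKO. Socs3, a feedback inhibitor of JAK signalling that several cytokines induce, measured 6.23 and 6.05 in LP cells against 5.01 and 4.45 in L-DKO cells, and 6.34 in pTαKO against 3.74 in WT, higher in all pTα-deficient libraries. Tlr7, a receptor for single-stranded RNA that dendritic and B cells express strongly, measured 3.29 and 1.49 in LP cells against 0.72 and 0.50 in L-DKO cells, and 1.83 in pTαKO against 0.13 in WT. Socs3 and Tlr7 were picked for large differences without overlap, so their separation describes these genes only.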

How the data were processed

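DP thymocytes from 6 mice (LP, 2; L-DKO, 2; pTαKO, 1; WT, 1) were measured by poly(A) RNA-Seq with paired-end reads. The submitters' processing notes name Trimmomatic 0.32, TopHat2 2.0.9 with the mm10 (GRCm38) genome and Cufflinks 2.2.0, and the removal of low-quality genes, for which no criterion is given. The deposited values are log2 FPKM per the file headers. An offset of 1 was inferred from exact zeros and the lack of negative values. Group means (2 columns) and differences between groups (3 columns) that the authors also deposited were not used. Depth was not stated, and the 20 most abundant entries held 30.0% to 72.6% of FPKM by library.

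Repeated symbols were reduced to their most abundant entry (Adar had 3), and hyphens lost from 297 entries were restored from gene name tables. Libraries were not rescaled. All genes averaging 0.5 FPKM or more were fitted with limma 3.58.1 in R 4.3.3 (lmFit, and eBayes with a trend), with 1 mean per group (2 residual degrees of freedom) or with additive pTα and Id terms (3 degrees of freedom). Adjustment of p over all genes followed Benjamini and Hochberg, comparison by comparison (threshold 0.05), and the fits were tested on simulated data. Overlap means that the ranges of the groups meet. Values by library were given for members at least 2-fold apart without overlap, the 2 most abundant of each role group and all GTPases, beside others chosen after values were seen (Irf7, Ifih1, Dhx58, Ifitm3, Lgals3bp, Ifi35, Ifi44, Ifit3, Ly6e and Psmb8). Genes of the further pathway lists were picked by the largest differences without overlap, between LP and L-DKO or by pTα status. The separation of Ifi27l2a, B2m, Nlrc5, Socs3 and Tlr7 therefore follows from that choice. Irf1 and the receptor chains were not picked by this rule. Members and lists were chosen with earlier results of these data known. Alternatives comprised another offset (0.25), another filter (2 FPKM) and none, no trend, summed entries, median centring, quantile normalization, a replicate block, only LP and L-DKO libraries, Ifi47 counted with the GTPases, each library left out and, chosen after the data were seen, a sex term. Coordinates, promoter windows and sequences are from RefSeq tables for GRCm38.p6. Gene names and roles are background.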

Additional observations from a re-analysis of the deposited data

Results flagged for a closer look

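In 3 genes, every LP library lay on 1 side of every L-DKO library and pTαKO on the opposite side of WT. Ifit3 differed by -0.34 between LP and L-DKO and by 1.65 between pTαKO and WT (difference of the effects -1.99 ± 0.72, adjusted p = 0.996 in limma). Ifi35 differed by -0.46 and 0.98 in these pairs (-1.44 ± 0.40, adjusted p = 0.996), and Sp100 by 0.15 and -0.24 (0.39 ± 0.25, adjusted p = 0.996). The interaction passed the test for none of the 3, and pTαKO and WT had 1 library each.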

How the results depend on the processing

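No member passed the test under any alternative run. With each library left out in turn, the type I median was 0.16 to 0.59 between LP and L-DKO and -0.28 to 0.13 by Id status, and the GTPase median was -0.095 to 0.95 between LP and L-DKO, -0.13 to 0.56 by pTα status and -0.07 to 0.26 by Id status. The type I median by pTα status was 0.30 to 0.62. With a sex term, chosen after the data were seen, the GTPase median was 0.95 between LP and L-DKO and 1.01 by pTα status. The other values stayed within the spread between replicates of a list median, 0.22 for type I targets and 0.47 for GTPases.

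Replicate numbers did not pair the libraries, since deviations of same-numbered L-DKO and LP libraries correlated at 0.035. With a replicate block the type I median was 0.30 between LP and L-DKO and 0.40 by pTα status, and no call changed.

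WT and pTαKO had 1 library each and replicates of LP and L-DKO 2, so a member that did not pass cannot be read as unchanged. Depth was not stated. Low members such as Mx1, Ifit3, Iigp1 and Samhd1 have differences that the offset of 1 makes smaller. Genotype and RNA of myeloid or B cell markers cannot be told apart in these libraries, nor can genotype and sex between pTαKO and WT.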
